A study of Mus musculus with 4 samples.

Results

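The dual-specificity MAP kinase phosphatases examined were Dusp1, Dusp2, Dusp4, Dusp5, Dusp6, Dusp7, Dusp10 and Dusp16, and every probe set annotated to 1 of these 8 genes alone was taken. This gave 9 of the 22690 probe sets on the array, for 6 of the 8 genes. No probe set was annotated to Dusp4 or Dusp5 alone, so both are not analysed here. RNA of CD4 cells had been hybridised to 4 MOE430A arrays from Affymetrix, of which 2 held wild type (+/+) and 2 held sanroque (san/san) RNA. Sanroque arose by mutagenesis of C57BL/6 males with ENU, is inherited as a recessive variant and was found by screening for antinuclear autoantibodies. It is known as a mutation of Rc3h1, the gene of Roquin-1, a protein that binds RNA. The labels give neither the age nor the sex of the mice used. Whether a genotype's arrays stem from separate mice is not stated either. The p-values here thus reflect only the spread of these arrays, which may be technical. In limma, that spread is taken in part from other probe sets of similar brightness. The file headers describe both number 1 arrays as sorted T cells and put the letters CBA, with no explanation, on wild type array 2; if they name a strain, strain and genotype cannot be told apart for that array. Arrays with the same number were hybridised on the same day, so each day holds 1 array of each genotype.

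MAP kinases carry signals from the T cell receptor, cytokine receptors and cell stress, and they are active when a threonine and a tyrosine in their activation loop are both phosphorylated. The phosphatases of this family remove both phosphates and so end the signal. Dusp1, Dusp2, Dusp4 and Dusp5 lie in the nucleus and are transcribed quickly after stimulation, which makes them feedback inhibitors. Dusp6 and Dusp7 lie in the cytoplasm and prefer ERK, and Dusp10 and Dusp16 prefer JNK and p38.

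The promoter windows of Dusp1, Dusp2 and Dusp10 are shown because these were the genes whose sanroque signals lay below both wild type signals on each probe set. Each runs from 250 bases before to 50 bases after the RefSeq start site in GRCm38.p6, 5′ to 3′ on the gene's strand: chr17:26508423-26508722 on the minus strand for Dusp1, chr2:127335909-127336208 on the plus strand for Dusp2 and chr1:184034131-184034430 on the plus strand for Dusp10. Capitals mark the CRE (TGACGTCA), which binds CREB and ATF factors, its core (TGACG), the AP-1 site (TGANTCA), the TATA box (TATAAA), the E-box (CACGTG), the CArG box of SRF and the NF-kB site, searched on both strands; the GC box (GGGCGG), which binds Sp1, was searched too but is not marked.
Dusp1: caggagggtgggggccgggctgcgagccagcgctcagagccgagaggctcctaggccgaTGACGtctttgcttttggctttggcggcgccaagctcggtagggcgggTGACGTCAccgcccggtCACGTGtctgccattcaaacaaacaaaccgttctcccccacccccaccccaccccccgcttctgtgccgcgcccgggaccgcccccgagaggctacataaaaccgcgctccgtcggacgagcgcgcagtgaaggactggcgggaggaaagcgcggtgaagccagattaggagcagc
Dusp2: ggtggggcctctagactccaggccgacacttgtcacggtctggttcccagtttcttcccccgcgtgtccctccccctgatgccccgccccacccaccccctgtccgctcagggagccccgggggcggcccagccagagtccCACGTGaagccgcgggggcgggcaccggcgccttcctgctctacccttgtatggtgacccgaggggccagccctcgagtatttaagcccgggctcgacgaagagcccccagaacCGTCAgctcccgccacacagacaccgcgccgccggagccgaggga
Dusp10: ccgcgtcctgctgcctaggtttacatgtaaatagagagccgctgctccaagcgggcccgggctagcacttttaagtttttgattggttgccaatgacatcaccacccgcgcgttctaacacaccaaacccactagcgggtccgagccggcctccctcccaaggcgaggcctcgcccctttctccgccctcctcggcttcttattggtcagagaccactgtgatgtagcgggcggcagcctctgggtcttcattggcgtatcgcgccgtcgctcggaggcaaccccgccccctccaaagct
The Dusp1 window holds a full CRE whose first base is at -143 from the start site, a further CRE core at -191 and an E-box at -126. A full CRE contains the core on each strand, so these motifs overlap. The Dusp2 window holds an E-box at -109 and a CRE core at 6, and the Dusp10 window holds none of the marked motifs. Each of the 3 windows holds 3 GC boxes, at -150, -135 and -48 in Dusp1, at -167, -129 and -94 in Dusp2 and at -68, -22 and 34 in Dusp10. Over all 32851 RefSeq windows of this length, 1.79% held the full CRE, 20.8% the core, 7.15% the E-box, 7.81% the AP-1 site, 13.6% the TATA box, 1.63% the CArG box, 4.51% the NF-kB site and 35.7% the GC box. A match describes the letters only, and no binding was measured. GC content was 67% for Dusp1, 70.7% for Dusp2 and 61% for Dusp10, against a median of 52.7% over all windows.

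Dusp1, the immediate early nuclear phosphatase that acts on p38, JNK and ERK, was the member that differed clearly between the genotypes. Its deposited signal was 1388.6 and 1790.8 on the wild type arrays 1 and 2, and 138.2 and 217.6 on the sanroque arrays 1 and 2. Both sanroque arrays lay far below both wild type arrays, and the second array was the brighter one in each genotype. The mean fell from 1590 ± 284 to 178 ± 56.1 (SD, n = 2 each), to 11.2% of wild type. On the scale of log2(signal + 6), on which all log2 fold changes here are given, Dusp1 fell by 3.14 with a standard error of 0.229 (limma, adjusted p = 3.85e-05), with a 95% interval from -3.65 to -2.64. Day 1 gave -3.27 and day 2 gave -3.01. Only 7 probe sets on the array fell further, out of 13579 tested. In RNA of pooled cells, fewer cells that express the gene and less RNA per cell cannot be told apart.

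**Figure D1:**
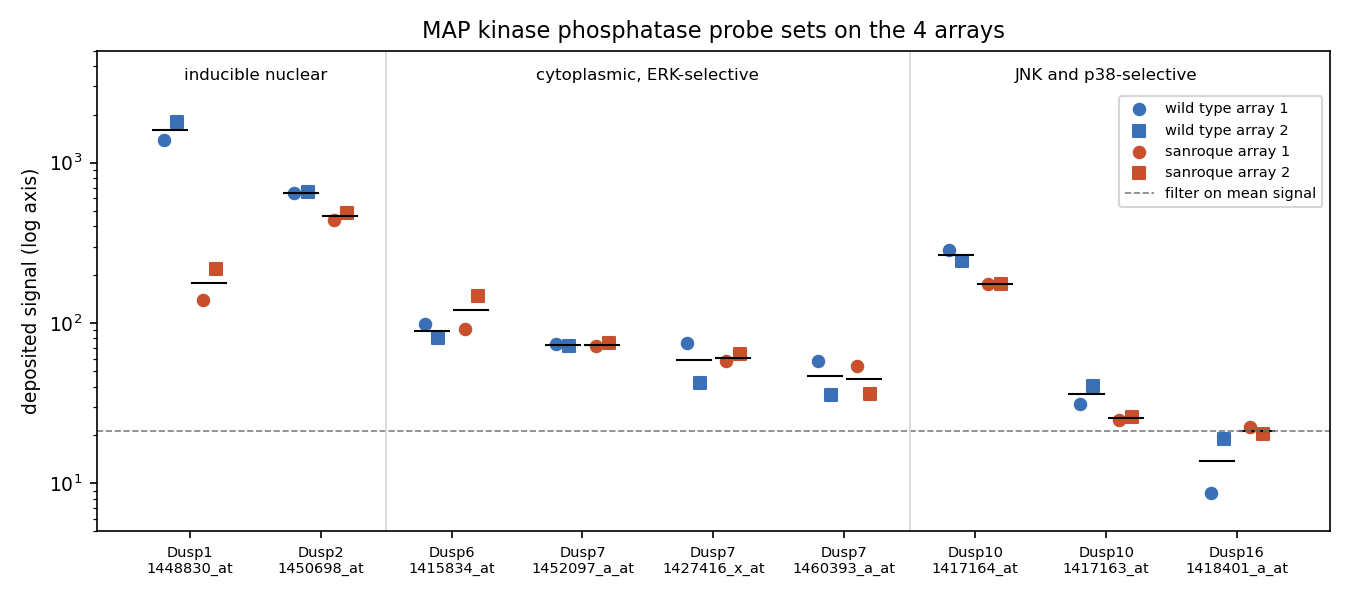
Deposited signal (log axis) of the 9 phosphatase probe sets on the wild type (blue) and sanroque (red) arrays, with the mean of each genotype as a short line and the filter on the mean signal, 21.3, as a dashed line. Dusp1 separates widely, Dusp2 and both Dusp10 probe sets separate narrowly, and the Dusp6 and Dusp7 signals overlap.

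Of the 9 member probe sets, 8 had a mean signal of at least 21.3 over the 4 arrays and were tested, and each of these 8 also had a mean above that level in both genotypes (25.4 or more). Dusp1 was the only 1 of the 8 with a limma adjusted p under 0.05, and it was lower, while 1.06% of all probe sets passed (144 of 13579), 0.39% as lower and 0.67% as higher. At an unadjusted p under 0.05, 3 of the 8 passed, against 9.89% of all probe sets. Without regard to the test, 4 of the 8 had genotypes that did not overlap, all with sanroque lower. Of all probe sets 38.7% did not overlap, 17.7% with sanroque lower and 21% with sanroque higher.

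Dusp2, also called PAC-1, is the other nuclear member measured and is best known from activated lymphocytes. Its signal was 646.5 and 657.3 in wild type and 440.1 and 485.2 in sanroque. The genotypes did not overlap, and the wild type arrays were close together. The means were 652 ± 7.64 and 463 ± 31.9 (SD, n = 2 each). The log2 fold change was -0.49, its 95% interval ran from -0.86 to -0.12, and it did not pass over all probe sets (limma adjusted p = 0.321). It was -0.55 on day 1 and -0.43 on day 2, and with the day as a block it passed (adjusted p = 0.0338). That call was lost with the block and no filter on dim probe sets (adjusted p = 0.104), a setting chosen after seeing the data.

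Set against Dusp1 on the same arrays, the log2 fold change of Dusp1 minus that of Dusp2 was -2.65, with -2.73 on day 1 and -2.57 on day 2. The same difference was -2.57 against Dusp10, -3.15 against Dusp7 and -3.51 against Dusp6, each taken at its brightest probe set. In all 4 pairs the ratio of Dusp1 to the other member was lower on both sanroque arrays than on both wild type arrays. The two-sided exact permutation p was 0.333 in each pair, also after adjustment over the 4, and this is the smallest that 2 arrays against 2 allow. The 95% interval of Dusp1 ended at -2.64, while the lowest bound of any other member was -1.19.

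**Figure D2:**
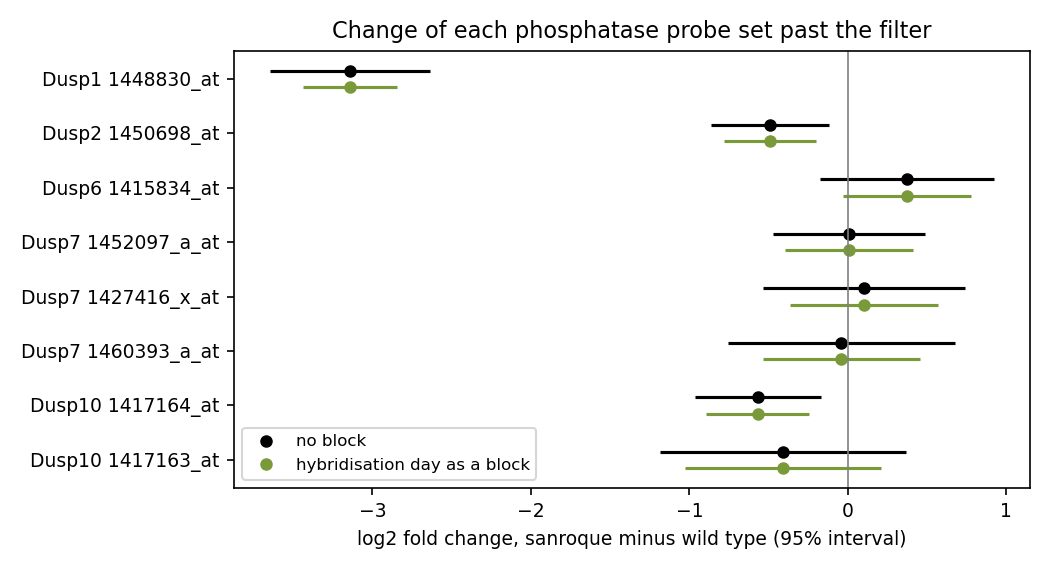
Log2 fold change of the 8 tested probe sets, sanroque minus wild type, with 95% intervals without a block (black) and with the hybridisation day as a block (green). The Dusp1 interval lies apart from all others, and those of Dusp2 and of the brighter Dusp10 probe set lie below 0.

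Dusp6 removes phosphate from ERK in the cytoplasm and is itself transcribed downstream of ERK. Its signal was 98.3 and 80.3 in wild type and 92 and 147.7 in sanroque. Only sanroque array 2 stood above the wild type arrays, so the genotypes overlapped. The means were 89.3 ± 12.7 and 120 ± 39.4 (SD, n = 2 each). The log2 fold change was 0.37, within a 95% interval from -0.18 to 0.92 (limma adjusted p = 0.71). The days differed, with -0.090 on day 1 and 0.83 on day 2, and without sanroque array 2 the log2 fold change was 0.047.

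Dusp7, the other ERK-selective cytoplasmic phosphatase, was read by 3 probe sets, 2 of them designed on the same sequence record. The brightest gave 73.6 and 71.3 in wild type and 71.3 and 74.6 in sanroque, all within a few units. Its log2 fold change was 0.0090, with a 95% interval from -0.47 to 0.49 (limma adjusted p = 0.997). The other probe sets gave 0.10 (interval -0.53 to 0.74) and -0.041 (interval -0.75 to 0.67), and their arrays overlapped too. The dimmest of the 3 followed the day, with 58.1 and 54 on day 1 and 35.4 and 35.8 on day 2. The intervals of these dimmer probe sets hold a change of the size estimated for Dusp2 (-0.49), and that of the brightest ends just short of it.

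Dusp10, which dephosphorylates p38 and JNK, had 2 probe sets. The brighter one gave 283.7 and 243.8 in wild type and 174.7 and 176.1 in sanroque, with no overlap. The means were 264 ± 28.2 and 175 ± 0.990 (SD, n = 2 each). The log2 fold change was -0.57, within a 95% interval from -0.97 to -0.17 (limma adjusted p = 0.255). Day 1 gave -0.68 and day 2 gave -0.46. With the day as a block it passed (adjusted p = 0.025), and with the block and no filter it did not (adjusted p = 0.0955). The dimmer probe set gave 31.1 and 40.7 in wild type and 24.9 and 25.8 in sanroque, a log2 fold change of -0.41 with a wide interval from -1.19 to 0.37 (adjusted p = 0.806). It did not pass with the block either (adjusted p = 0.512).

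Dusp16, a phosphatase of JNK and p38, lay under the filter with a mean signal of 17.5. It read 8.7 and 18.8 in wild type and 22.3 and 20.3 in sanroque, so both sanroque arrays lay above both wild type arrays, all under the median signal of every array (30.8 or more). Without the filter its log2 fold change was 0.51, with a 95% interval from -0.53 to 1.56 (limma adjusted p = 0.878), and nearly all of it came from day 1, with 0.94 against 0.085 on day 2.

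With the hybridisation day as a block, 3 of the 8 tested probe sets passed, those of Dusp1, Dusp2 and the brighter one of Dusp10, all lower in sanroque. In that fit 6.27% of all probe sets passed, 2.68% as lower and 3.59% as higher. The block leaves 1 degree of freedom for the spread of each probe set, so that spread comes mostly from other probe sets. Grouped by role with 1 probe set per gene, the 2 measured nuclear members had log2 fold changes of -3.14 and -0.49, with a median of -1.82. The 3 others past the filter ranged from -0.57 to 0.37 with a median of 0.0090, and the median of all probe sets tested was 0.015. The nuclear class rests on 2 genes, and the value of Dusp2 (-0.49) lies nearer to that of Dusp10 (-0.57) than to that of Dusp1. No test was made over the members, which are not replicates of each other.

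**Figure D3:**
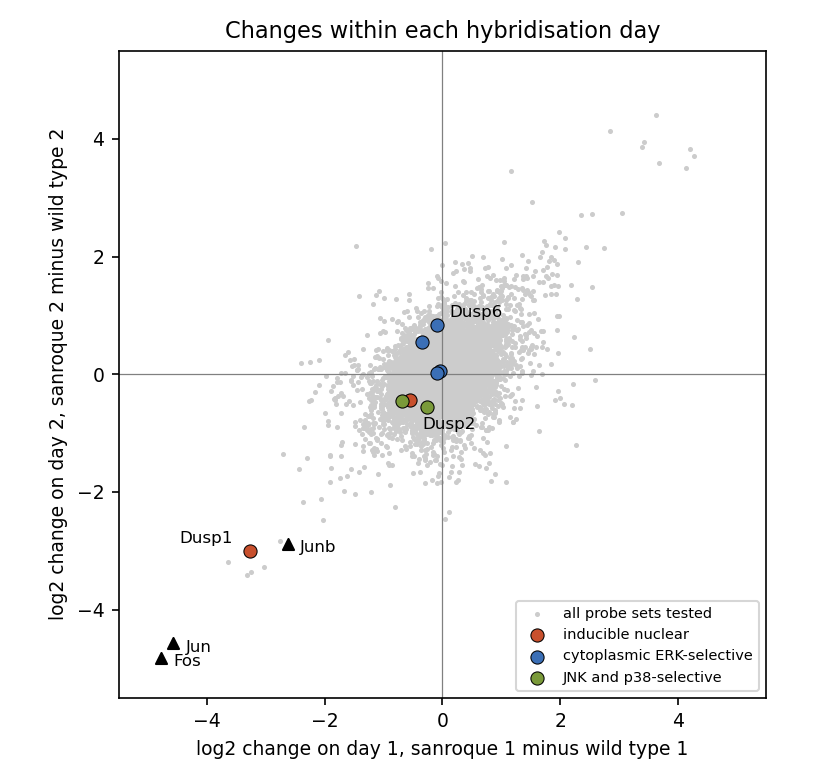
Log2 change within day 1 (x axis) and within day 2 (y axis) for all 13579 probe sets tested (grey), the 8 phosphatase probe sets (coloured by class) and Fos, Jun and Junb (triangles). Dusp1 lies at -3.27 and -3.01, beside Junb and apart from the other phosphatases, while Dusp6 lies near 0 on day 1 and at 0.83 on day 2.

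The genes most like Dusp1 were sought by the Euclidean distance of log2 values, centred on their own mean over the 4 arrays. The nearest was Tnfaip3, an inhibitor of NF-kB signalling, at a distance of 0.217. It read 736.1 and 818.4 in wild type and 68.3 and 93.6 in sanroque, a log2 fold change of -3.18. Next came Ppp1r15a, which directs a phosphatase to the translation factor eIF2α in stressed cells, at a distance of 0.420 and a log2 fold change of -2.80. Junb, an AP-1 subunit, followed at 0.495, with 923.6 and 1263 in wild type and 144.1 and 166.1 in sanroque. This likeness rests on 4 arrays and mostly on the step between the genotypes.

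Targets at the end of MAP kinase signalling, mostly nuclear factors but also Mcl1, differed in part. Of 19 measured genes on that list, 5 fell, 1 rose and 13 did not pass, with a median log2 fold change of 0.0073; of all 7860 genes, each by its brightest probe set, 1.11% were called, 0.331% lower and 0.776% higher. The AP-1 subunit gene Fos fell from 2393.2 and 2968 to 81 and 99.7 (log2 fold change -4.80, limma adjusted p = 5.58e-07). Jun, which is activated by JNK, fell from 1425.4 and 1219.6 to 53.9 and 45.4 (-4.58, adjusted p = 5.58e-07), and Junb fell by 2.76. The remaining falls, named after their values were seen, were Fosb (-1.75) and Ier2 (-1.21); Fosb did not pass without wild type array 1 (adjusted p = 0.109), without sanroque array 2 (0.0673), without the filter (0.193) or without the variance trend (0.16), and Ier2 did not without the trend (0.115). The gene that rose was Egr2 (1.17, adjusted p = 0.0317), also named after its values were seen, but its call was lost when sanroque array 1 was left out (0.182), with quantile normalization (0.0612), without the filter (0.143) and without the variance trend (0.192), and its other probe set gave -0.34 (adjusted p = 0.78).

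The genes of MAP kinases, of their upstream inputs and of the kinases they activate gave no calls. None of the 5 measured MAP kinase genes, 15 genes of the kinases above them, 12 genes of Ras and its regulators or 5 genes of kinases that MAP kinases activate passed the limma test, and their median log2 fold changes were -0.24, -0.015, -0.10 and 0.073. At an unadjusted p under 0.05 the counts were 1, 1, 0 and 0, against 9.59% of all genes. The largest differences were those of the JNK gene Mapk8 (-0.49, adjusted p = 0.439), the stress kinase gene Map3k5 (0.73, adjusted p = 0.214), the Ras inhibitor gene Nf1 (0.56, adjusted p = 0.76) and the p38 effector gene Mapkapk2 (0.40, adjusted p = 0.557). Nf1 was dim, with a mean of 18.2 in wild type, under the filter level of 21.3, and 29.75 in sanroque. With the day as a block, Map3k5 passed (limma adjusted p = 0.0147), the single call on these 4 lists by brightest probe set. A dimmer probe set of Mapk8 passed as well (adjusted p = 0.00245).

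Other phosphatases and inhibitors of the pathway gave no calls either. Of 17 other dual-specificity phosphatase and related genes 8 were measured, with a median of -0.0068, and the largest difference was that of Dusp3 (0.60, limma adjusted p = 0.866). That Dusp3 probe set was dim, with 30.6 and 5.8 in wild type and 43.1 and 14.2 in sanroque, so the genotypes overlapped. Its wild type mean of 18.2 lay under the filter level. Of 7 measured genes of other enzymes that dephosphorylate MAP kinases the largest was Ppp2r5c, a regulatory subunit gene of PP2A (0.43, adjusted p = 0.425; list median 0.071). Of 4 measured ERK feedback inhibitors it was Errfi1 (-0.57, limma adjusted p = 0.696), with a list median of 0.29. This Errfi1 probe set was dim (mean signal 30.7), and the other, at 30.45, gave 0.23. By the brightest probe set of each gene, the count on these 3 lists with the day as a block was 0 too. At an unadjusted p of 0.05 the counts were 0, 1 and 0. With the block, a dimmer probe set of Ppp2r5c (0.77, limma adjusted p = 0.00907) and 1 of Ppp2r1a (0.60, adjusted p = 0.0144) passed. No other probe set of either gene did.

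**Figure D4:**
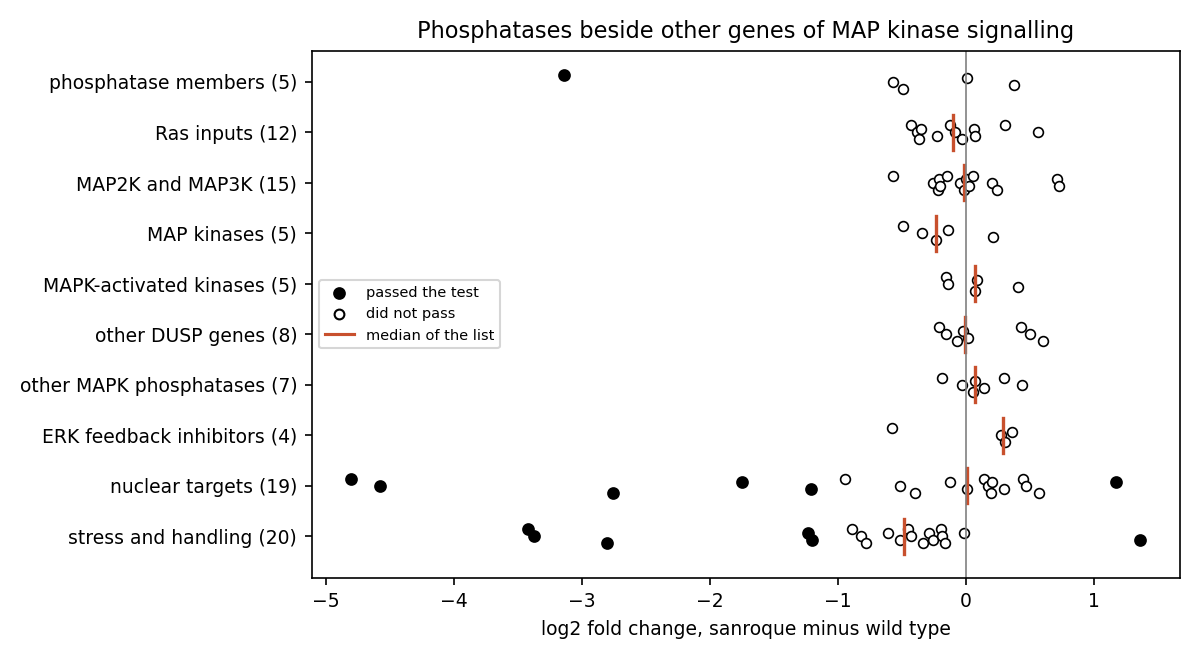
Log2 fold change of each measured gene (brightest probe set) of the phosphatase family and of 9 lists, with the number of genes in brackets, filled where the gene passed the test, and the list median as a red line. Filled points occur only for Dusp1, for nuclear targets and for stress and handling genes.

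Stress and handling genes, which respond to heat, translation stress or cell isolation, differed in part as well. Among 20 measured genes, each by its brightest probe set, 5 were called lower, 1 was called higher and 14 missed the threshold. Over all 7860 genes 0.331% were called lower and 0.776% higher. The median was -0.48, and 19 of the 20 had a negative change. Their summed signal was 19857 and 22147 in wild type against 14606 and 15184 in sanroque. Hspa1a and Hspa1b, which encode heat shock proteins, fell by 3.42 and 3.37 and Ppp1r15a fell by 2.80. The other falls, named after their values were seen, were the mRNA decay factor gene Zfp36 (-1.24) and the antiproliferative gene Btg2 (-1.20); Btg2 missed the threshold when sanroque array 1 was left out (limma adjusted p = 0.139), with each array centred on its median (0.101), without the filter (0.146) and without the variance trend (0.253). Without the trend Zfp36 missed it too (0.101). Dimmer probe sets of genes not called by their brightest one, named after their values were seen, also passed as lower. These were of Hspa8 (-1.59, limma adjusted p = 0.00337), Dnajb1 (-1.09, 0.012) and Klf6 (-1.53, 0.034, and -1.09, 0.0471). Both Klf6 calls were lost without the filter (0.175 and 0.168). The brightest probe sets of Hspa8, Dnajb1 and Klf6 gave -0.017, -0.82 and -0.89. The gene that rose, named after its values were seen, was Socs3 (1.36), an inhibitor of cytokine signalling, whose call was lost without the trend (0.101). The part of stress or handling in the Dusp1 result was not tested. The signal ratio of the 3′ to the 5′ control probe sets lay between 0.701 and 0.827 for Gapdh and between 1.06 and 1.18 for Actb, and overlapped between the genotypes.

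Markers of the sorted cells were bright on every array, and none of 9 measured genes of CD4 T cells passed the limma test (2 at an unadjusted p of 0.05); Cd4 itself read 533.3 and 613.5 in wild type and 585.9 and 570.2 in sanroque. Of 13 measured myeloid genes 2 passed as higher, Lyz1 and Lyz2. The signal of that list summed to 3204 and 3742 in wild type against 5572 and 5770 in sanroque. Of 9 neutrophil genes 3 passed as higher, Ngp, S100a8 and S100a9, with sums of 577 and 560 against 1412 and 1467. Without regard to the test, 12 of the 13 myeloid and all 9 neutrophil genes were higher in sanroque, with median log2 fold changes of 0.48 and 1.28. Among the neutrophil genes, Camp, Lcn2 and Mmp9 had wild type means of 10.85, 8.45 and 14.4, under the filter level of 21.3. These genes passed the filter only through their sanroque signals, so their direction and their part in that median carry no weight. Over all 7860 genes 4260 were higher, with a median of 0.031. Without the variance trend Lyz1 (limma adjusted p = 0.0507), S100a8 (0.128) and S100a9 (0.137) missed the threshold, which left 1 call on each of these lists, and S100a9 also missed it with each array centred on its median (0.0881). Of 10 B cell, 4 plasma cell, 9 CD8 T or NK cell and 5 red cell or platelet genes none passed, and 1, 1, 1 and 3 did at an unadjusted p of 0.05. The largest difference on these lists was that of Eomes, a transcription factor gene of CD8 T and NK cells, which read 29.1 and 24.3 in wild type and 80.7 and 63.4 in sanroque (log2 fold change 1.25, limma adjusted p = 0.0782, and 0.00095 with the day as a block). Cr2 of B cells gave -0.73 (adjusted p = 0.216, 0.0127 with the block), Slc4a1 of red cells gave 0.72 (0.142, 0.00481 with the block) and Prdm1 of plasma cells gave 0.52 (0.569). Cd247 of the CD4 T cell list gave -0.41 (limma adjusted p = 0.425, 0.0792 with the block). Its dimmer probe sets gave -0.58 (0.216, 0.0142 with the block) and -0.62 (0.682, 0.274 with the block). Sums were 1630 and 1687 against 1576 and 1693 for B cells and 1116 and 1111 against 1591 and 1728 for red cells and platelets. On the latter list the red cell genes Slc4a1, Alas2 (0.63) and Car2 (0.57) were higher, while the platelet genes Pf4 (-0.23) and Itga2b (-0.26) were lower. The part of other cell types in the phosphatase results was not tested.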

How the data were processed

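The deposited values are linear intensities, 1 for each probe set on each array. The trimmed mean of each array (2% to 98%) lay between 99.6 and 100, so the authors had scaled the arrays before deposit; how probes were summarised and background removed is not stated in the labels or headers, and detection calls were not used. The chip type and hybridisation days were read per the file headers. Of the probe sets, 20380 had 1 gene symbol, 691 several and 1555 were not listed; symbols came from the platform annotation, updated through RefSeq.

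Signals were analysed as log2(signal + 6). Left out were 64 controls and probe sets whose mean was under the 40th percentile (21.3). The genotypes were compared with limma 3.58.1 (lmFit, eBayes with a variance trend; R 4.3.3) without covariates, and two-sided p-values were adjusted by Benjamini-Hochberg over 13579 probe sets at a threshold of 0.05. Same-numbered arrays share a hybridisation day, which entered only as a block in an alternative fit; deviations from the genotype means of same-numbered arrays correlated with 0.392 over 2 pairs. The fit was tested on simulated data. Members and lists were chosen with earlier results of these data known.

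In each list the up to 3 largest changes past the test were named, or else the largest difference, besides all members, Fos, Jun, Cd4 and the 3 genes nearest to Dusp1. Alternatives were quantile normalization, median centring, pseudocounts of 1 and 24, a filter at the 60th percentile or none, eBayes without the trend, blocks for the day or for how titles were worded, and each array left out. Plots used matplotlib 3.10.9 (Python 3.11.15).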

Additional observations from a re-analysis of the deposited data

How the results depend on the processing

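Dusp1 was lower and past the limma test under all 14 alternatives, with log2 fold changes from -3.46 to -2.82 and adjusted p from 1.33e-16 to 0.0149. Dusp2 and the brighter Dusp10 probe set kept their sign in all 14 and passed only with the replicate block, which raised the count of member probe sets past the test from 1 to 3; the block changed no other call of a member. Dusp6 kept its sign, between 0.047 and 0.70. The Dusp7 probe sets, all close to 0, did not keep theirs: the brightest gave -0.016 under quantile normalization, -0.082 with each array centred on its median and -0.021 to 0.039 with an array left out, and the others gave -0.27 to 0.48 and -0.36 to 0.27 with an array left out; the cause was not tested. Over all probe sets the count past the test was 144, and 56 without the filter, 47 without the variance trend, 852 with the replicate block, 296 with the block and no filter, and 105 to 356 with an array left out, the highest without wild type array 1. Leaving out an array leaves a genotype with 1, which is assumed to vary like the other. Without the variance trend 3 nuclear target genes and 3 stress genes were called lower, and 1 neutrophil and 1 myeloid gene were called higher. The stress genes called lower were 10 with the block. With the block 6 neutrophil genes were called higher, among them Camp and Lcn2, which passed the filter only through their sanroque signals. The 3 red cell genes Alas2, Slc4a1 and Car2 were called higher too. Median centring called 5 neutrophil genes. Signals near the low end limit Dusp16 and the dimmer Dusp7 and Dusp10 probe sets.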

Other observations

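Probe sets of the JNK and p38 genes, the kinases that Dusp1, Dusp10 and Dusp16 dephosphorylate, were read one by one, and those given here were named after their values were seen. Mapk8 had 3 probe sets past the filter. The dimmest read 52 and 84.1 in wild type and 24.7 and 25.8 in sanroque, with no overlap and a log2 fold change of -1.21 (limma adjusted p = 0.133, and 0.00245 with the day as a block). The others gave -0.49 (adjusted p = 0.439, and 0.1 with the block) and -0.21 (0.841 and 0.601), so the Mapk8 probe sets shared a sign but not a size. Mapk14, which encodes p38α, had 3 as well, with -0.24, -0.22 and -0.54, none past the test with or without the block. Mapk9, a further JNK gene, had -0.14, 0.13 and 0.55.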
